A study of Mus musculus with 6 samples.

Results

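The mitochondrial carriers named Slc25a were described in livers of mice injected repeatedly with poloxamer P-407, a surfactant used to produce high blood lipids. The members are the features of 2 Agilent microarrays whose annotated mouse symbol starts with Slc25a and a number. They comprised 44 of 22575 features on the oligonucleotide array and 19 of 13482 on the cDNA array, and named 43 of 17347 genes. The P-407 group was 12 female C57BL/6 mice, 7 weeks old at the start and on chow with 4.4% fat, injected intraperitoneally with 0.5 g/kg P-407 at intervals of 3 days for 96 days. Their liver RNA was combined into 3 pools, and the labels do not say how the 12 mice were divided among them. The control was 1 pool of liver RNA from 4 mice injected with saline on the same schedule. Each treated pool, labelled with Cy5, was read on 1 array of each type against the same control pool, labelled with Cy3, which made 6 arrays. Both groups had the same strain, sex and diet, and the sources used here name no allele or transgene.

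Members of the SLC25 family sit mostly in the inner mitochondrial membrane and exchange metabolites between the matrix and the cytosol. They move ATP, ADP and phosphate, citrate and other carboxylates, amino acids, acylcarnitines, cofactors and iron. In liver they connect mitochondrial reactions with fat synthesis, the urea cycle, gluconeogenesis and haem synthesis, since these pathways have steps on both sides of that membrane. A few relatives act in peroxisomes or in the outer mitochondrial membrane.

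All values below are log2 ratios of a P-407 pool over the control pool, with the median of each array set to 0, and values above 0 stand for more RNA in P-407 livers. The files hold ratios and no intensities, so the levels of the carriers, and which of them lay above background, are unknown here. Samples were bulk liver RNA, in which fewer cells of a type and less RNA per cell cannot be told apart. No array had the dyes exchanged and control RNA came from 1 pool. Effects of dye and of treatment therefore cannot be told apart, and the spread between control animals is in no p-value. For 1 array type the p-values rest on the spread between its 3 arrays, 1 per pool, and on variance shared between genes. Each pool was read once per array type, so differences between pools and between hybridisations cannot be told apart in that spread.

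Markers of macrophages, hepatocytes and red cell precursors differed between the groups. Of 11 macrophage markers measured on the oligonucleotide array, 10 were higher and 1 lower in P-407 pools, and the mean of the list was 2.06, 1.87 and 1.82 in pools 1, 2 and 3. Of 12 hepatocyte markers 7 were lower and none higher, with list means of -0.46, -0.49 and -0.35. Of 9 erythroid markers 6 were higher and 1 lower, with list means of 0.32, 0.26 and 0.20. Of 10 muscle and brown fat markers 2 were higher, a share no larger than the 22% of all genes called higher, with list means of 0.00, 0.08 and 0.08. Alas2, one of the erythroid markers called higher, read below 0 in every pool on the cDNA array. The part of these cell types in the carrier results was not tested.

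All 43 carrier genes had values on all 3 oligonucleotide arrays, and the question was which of them differed between P-407 and control livers. A gene was called where limma's adjusted p was under 0.05. By that rule 15 carrier genes were lower and 5 were higher in P-407 livers. These 20 calls are 46.5% of the carriers, and 43.4% of all 16871 genes tested were called, so the share of carriers called lay near the background. Calls of lower made up 34.9% of the carriers, against 21.4% of all genes, and calls of higher made up 11.6%, against 22% of all genes. The median ratio of the carriers was -0.04 and that of all genes 0.00. Most changes were small. Of the called carriers 9 had a mean at least 0.32 from 0, which is a 1.25-fold change, with 8 lower and 1 higher. Over all genes 14.7% were called at that size, 7.01% lower and 7.74% higher. No carrier changed 2-fold.

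Small shifts were also called in odorant, vomeronasal and trace amine receptor genes, which liver is not known to use. Of 862 such genes 311 were called, or 36.1%, with 216 lower and 95 higher. More of their calls were thus lower than higher, as among the carriers. The median absolute ratio of those calls was 0.25 and the highest 0.92, and only Slc25a25 among the carriers exceeded that value. Without the variance shared between genes, the same test called 0.237% of all genes and no carrier. Tested against a 1.2-fold change, which 5.17% of all genes passed, it called Slc25a15, Slc25a17 and Slc25a25 lower and Slc25a41 higher. Without pool 1 it called 10 carriers, 8 lower and 2 higher, against 23.9% of all genes.

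**Figure D1:**
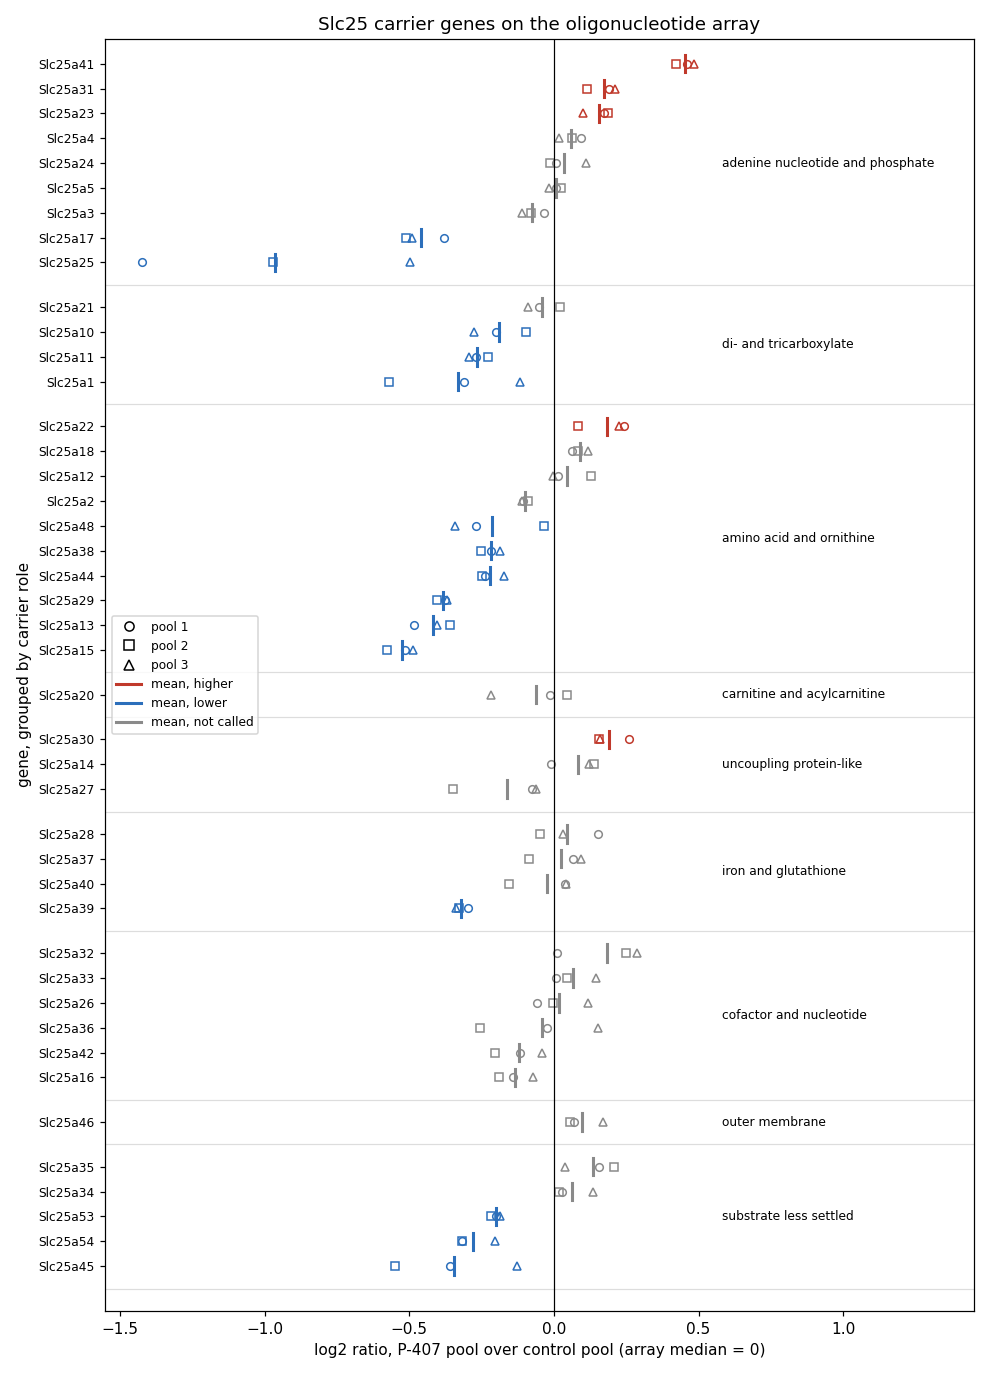
Log2 ratio of each P-407 pool over the control pool for 43 Slc25 genes on the oligonucleotide array, grouped by carrier role and ordered by mean. Open symbols are the 3 pools, the bar is their mean, and red, blue and grey mark genes called higher, called lower and not called by limma. Slc25a25 lies lowest at a mean of -0.96 and Slc25a41 highest at 0.45, and all 4 carboxylate carriers have a mean below 0.

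The carriers of adenine nucleotides and phosphate moved in both directions. Of 9 placed in this group, with the peroxisomal Slc25a17 among them, 2 were lower, 3 were higher and 4 were not called. Of all genes 21.4% were called lower and 22% higher. The role groups here and below are small, and none was tested as a group. Slc25a25, a calcium-regulated carrier that exchanges ATP-magnesium for phosphate, had ratios of -1.42, -0.97 and -0.50 in pools 1, 2 and 3. All 3 pools lay below 0, and pool 1 was the lowest. The mean was -0.96 ± 0.46 (SD, n = 3 pools), a 1.95-fold lower level in P-407 livers (adjusted p = 0.0057). Slc25a41, a carrier of the same substrates that lacks the calcium-binding domain, had ratios of 0.46, 0.42 and 0.48 and a mean of 0.45 ± 0.03 (adjusted p = 0.0010). The pools of these related genes lay on opposite sides of 0. The other calcium-regulated relatives were Slc25a23, higher at a mean of 0.15, and Slc25a24, not called at 0.03.

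Slc25a25 had the largest change of the carriers, and its start region is shown because 1 of its 3 RefSeq windows holds the full cAMP response element. The sequence gives the 250 bases before a transcription start at chr2:32424067-32424316 of GRCm38.p6, 5′ to 3′ on the minus strand, on which the gene lies. The element TGACGTCA, in capitals, starts 150 bases before the transcription start and contains the shorter core TGACG.
Slc25a25: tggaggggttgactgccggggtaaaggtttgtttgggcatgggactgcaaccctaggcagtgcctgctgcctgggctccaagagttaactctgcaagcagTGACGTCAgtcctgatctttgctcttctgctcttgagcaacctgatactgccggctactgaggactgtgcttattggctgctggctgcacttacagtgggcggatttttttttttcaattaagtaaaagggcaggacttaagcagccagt
Of 32851 RefSeq windows of 300 bases, 1.79% hold TGACGTCA on either strand, and of all genes with a window 2.03% do. Among 34 carrier genes with a window, Slc25a25 and Slc25a36 held it, or 5.88%. Slc25a36, a pyrimidine nucleotide carrier, was not called at a mean of -0.04.

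Slc25a17, a carrier of the peroxisomal membrane for coenzyme A, FAD and NAD, had ratios of -0.38, -0.51 and -0.49. The 3 pools lay close together below 0, with a mean of -0.46 ± 0.07 (adjusted p = 0.0013). It was the 1 carrier with 2 oligonucleotide features, which were both lower but differed in size, at means of -0.67 and -0.26. Slc25a31, an adenine nucleotide translocase best known from testis, was higher at a mean of 0.17. The calls of Slc25a23 and Slc25a31 were lost without single pools: without pool 1 the adjusted p was 0.157 for Slc25a23 and 0.123 for Slc25a31, without pool 2 it was 0.111 for Slc25a23, and without pool 3 it was 0.0712 for Slc25a31.

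The main translocases of adenine nucleotides and the phosphate carrier, which supply ATP synthase, were not called. Slc25a4, the translocase of heart and muscle, had ratios of 0.09, 0.06 and 0.02, and Slc25a5, the translocase of most other tissues, had 0.01, 0.03 and -0.02. Slc25a3, the phosphate carrier, had ratios of -0.03, -0.08 and -0.11. Adjusted p was 0.298, 0.921 and 0.187 for these genes in that order. These values ran from -0.11 to 0.09, so all lay close to the array median.

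Of the carriers of di- and tricarboxylates, 3 of 4 were lower and none higher, against 21.4% of all genes lower and 22% higher. Slc25a1, the citrate carrier that delivers carbon for fat and sterol synthesis, had ratios of -0.31, -0.57 and -0.12. All pools lay below 0, pool 2 farthest and pool 3 nearest, and the mean was -0.33 ± 0.23 (adjusted p = 0.0245). Without pool 1 its adjusted p was 0.0790, and without pool 2 its mean was -0.21 and its adjusted p 0.0735. Slc25a11, the oxoglutarate carrier of the malate-aspartate shuttle, had ratios of -0.27, -0.23 and -0.29 and a mean of -0.26 ± 0.03 (adjusted p = 0.0047). Slc25a10, the dicarboxylate carrier for malate and succinate, had ratios of -0.20, -0.10 and -0.28 and a mean of -0.19 ± 0.09 (adjusted p = 0.0242). The adjusted p of Slc25a10 was 0.114 without pool 1 and 0.0821 without pool 3. Slc25a21, the oxodicarboxylate carrier, had a mean of -0.04 and was not called.

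Of 10 carriers placed with amino acids and ornithine, 6 were lower and 1 was higher, against 21.4% of all genes lower and 22% higher. Slc25a15, the ornithine and citrulline carrier of the urea cycle, had ratios of -0.52, -0.58 and -0.49. The pools lay close together, with a mean of -0.53 ± 0.05, 1.44-fold lower in P-407 livers (adjusted p = 0.00073). Slc25a13, the aspartate and glutamate carrier of liver known as citrin, had ratios of -0.48, -0.36 and -0.41 and a mean of -0.42 ± 0.06 (adjusted p = 0.0016). Slc25a29, a carrier of basic amino acids such as arginine and lysine, had ratios of -0.38, -0.40 and -0.37 and a mean of -0.38 ± 0.02 (adjusted p = 0.0015). These carriers were called in all 3 fits that left out 1 pool. Slc25a38, the glycine carrier that feeds haem synthesis, had ratios of -0.22, -0.25 and -0.19 and a mean of -0.22 ± 0.03 (adjusted p = 0.0085). Slc25a44, a carrier of branched-chain amino acids, had a mean of -0.22, and Slc25a48 one of -0.21. Without pool 1 the adjusted p was 0.0567 for Slc25a38, 0.0637 for Slc25a44 and 0.179 for Slc25a48, and it was 0.150 for Slc25a48 without pool 3.

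The closest relatives of the lower amino acid carriers had other values. Slc25a12, known as aralar and the aspartate and glutamate carrier of brain and muscle, had a mean of 0.05 beside -0.42 for Slc25a13. Slc25a2, the ornithine carrier most like Slc25a15, had a mean of -0.10 beside -0.53. Neither relative was called, and the differences within these pairs were not tested. Of the glutamate carriers, Slc25a22 had ratios of 0.24, 0.08 and 0.23 and was higher at a mean of 0.18 ± 0.09 (adjusted p = 0.0270). Its adjusted p was 0.154 without pool 1 and 0.0867 without pool 3. Slc25a18 had a mean of 0.09 and was not called.

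The E-box CACGTG, the motif read by clock factors and by several factors of lipid metabolism, was found in 7 of 34 carrier genes, or 20.6%, against 8.09% of all genes with a window. The 7 were Slc25a1, Slc25a13 and Slc25a15, which were lower, Slc25a31, which was higher, and Slc25a14, Slc25a33 and Slc25a36, which were not called. The windows of the citrate carrier and of citrin are shown as examples of the motif, in capitals, in carriers that were lower. Both give the 250 bases before the start in GRCm38.p6, 5′ to 3′ on the minus strand, at chr16:17928220-17928469 for Slc25a1 and chr6:6217174-6217423 for Slc25a13.
Slc25a1: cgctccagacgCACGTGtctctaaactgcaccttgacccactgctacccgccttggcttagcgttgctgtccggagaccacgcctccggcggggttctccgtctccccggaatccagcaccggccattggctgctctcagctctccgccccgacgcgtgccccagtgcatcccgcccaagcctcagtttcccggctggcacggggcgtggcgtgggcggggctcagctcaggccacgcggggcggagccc
Slc25a13: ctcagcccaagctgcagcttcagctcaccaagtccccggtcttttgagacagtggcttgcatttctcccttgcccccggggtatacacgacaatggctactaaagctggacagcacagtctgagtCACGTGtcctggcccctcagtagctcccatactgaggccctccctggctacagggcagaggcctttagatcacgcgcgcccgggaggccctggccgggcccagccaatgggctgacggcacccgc
The motif starts 239 bases before the start in Slc25a1 and 125 in Slc25a13. The windows printed were chosen after the ratios and the matches of 12 motifs were seen, and a match is a description of letters, not of a site in use.

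Across all motifs searched, on both strands, the GC box GGGCGG was the most frequent in the carriers. It was found in 29 of 34 carrier genes, or 85.3%, against 38.2% of all genes with a window, and CCAAT in 18 of 34 against 41.1%. The ETS letters CCGGAAG were found in 7 carrier genes, or 20.6% against 9.93% of all genes, and the core TGACG in 12, or 35.3% against 23%. The background was all genes with a window, not matched to the carriers in base composition or gene class. No motif share, that of the E-box included, was tested. The sterol response letters TCACNCCAC were found in Slc25a18 only, or 2.94% against 1.44%. The letters searched for the PPAR response element, the ERR element (TCAAGGTCA), the NRF1 site, the D-box (TTATGTAA) and HNF4 (CAAAGTCCA) were in no carrier window, and in 0.0396%, 0.423%, 0.971%, 0.938% and 0.475% of all windows in that order.

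The carriers of iron and glutathione were mostly not called. Slc25a37 and Slc25a28, the mitoferrins that import iron for haem and iron-sulphur clusters, had ratios of 0.07, -0.09 and 0.09, and of 0.15, -0.05 and 0.03. Each had pools on both sides of 0, with an adjusted p of 0.718 for Slc25a37 and 0.515 for Slc25a28. Slc25a39, which brings glutathione into mitochondria, had ratios of -0.30, -0.33 and -0.34. The pools were nearly equal, with a mean of -0.32 ± 0.02 (adjusted p = 0.0024). Slc25a40, its closest relative, had a mean of -0.02 and was not called. Slc25a37 and Slc25a38 serve haem synthesis, which red cell precursors also run, and the erythroid markers given above had list means between 0.20 and 0.32.

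The carnitine and acylcarnitine carrier Slc25a20, through which long fatty acids reach β-oxidation, was not called. Its ratios were -0.01, 0.04 and -0.22 and its adjusted p 0.432. The pools lay on both sides of 0. Of the carriers like uncoupling proteins, Slc25a30 was higher at a mean of 0.19, and its adjusted p was 0.119 without pool 1. Slc25a14 and Slc25a27 were not called, at means of 0.08 and -0.16.

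None of the 6 members placed with cofactors and nucleotides was called. Slc25a17, which also carries cofactors and was lower, was counted with the adenine nucleotide carriers. Slc25a42, a coenzyme A carrier, had ratios of -0.12, -0.20 and -0.04 (adjusted p = 0.0843). The others were Slc25a16, Slc25a26 for S-adenosylmethionine, Slc25a32 for folate and FAD, and Slc25a33 and Slc25a36 for pyrimidine nucleotides, with means between -0.13 and 0.18. Slc25a46 of the outer membrane, which takes part in mitochondrial shape, had a mean of 0.10 and was not called.

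Of 5 members whose substrates are less settled, 3 were lower, against 21.4% of all genes. Slc25a45 had ratios of -0.36, -0.55 and -0.13, with a mean of -0.34 ± 0.21 (adjusted p = 0.0178). Pool 3 lay nearest to 0, and the adjusted p was 0.0717 without pool 1 and 0.0658 without pool 2. Slc25a54 was lower at a mean of -0.28 and Slc25a53 at -0.20, and Slc25a53 had an adjusted p of 0.0664 without pool 1. Slc25a34 and Slc25a35 were not called, at 0.06 and 0.13.

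Of 43 carriers, 32 had ratios of 1 sign on all 3 oligonucleotide arrays, and 69.2% of all genes did. On the cDNA array 2 features named Slc25a51, the NAD carrier, together with another gene. Their ratios were -1.30, 1.08 and -1.99 on 1 feature and -0.64, -0.30 and -0.59 on the other. They could not be assigned to 1 gene and entered no test.

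The cDNA array read the same RNA pools by direct labelling of 10 ug of RNA, while the oligonucleotide array used 0.5 ug. Both array types share the treated pools and the control pool, so they are 2 readings of 1 comparison. Of 19 carrier genes on the cDNA array, 17 had values on all 3 arrays. The fit called none of the 17 carriers and none of the 5011 genes, a background of 0%. At an unadjusted p under 0.05 it held 3 carriers, Slc25a1, Slc25a10 and Slc25a25, and 1518 genes. The smallest adjusted p over all genes was 0.0984, and the test without shared variance called 1 gene, not a carrier. The count of 0 is therefore no statement about the carriers.

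On the cDNA array Slc25a25 had ratios of -1.40, -0.80 and -0.45, beside -1.42, -0.97 and -0.50 on the oligonucleotide array. On both array types pool 1 was lowest and pool 3 nearest to 0. Slc25a1 had -0.47, -0.38 and -0.65 on the cDNA array, where pool 3 was lowest, and on the oligonucleotide array pool 3 was nearest to 0. Slc25a10 had -0.81, -0.32 and -0.70 on the cDNA array, with pool 2 nearest to 0 on both types. Slc25a39 had -0.16, -0.21 and -0.33. All pools of these 4 carriers lay below 0 on both array types. Of the 17 carriers with values on both types, 8 had means of the same sign on each, and 58.3% of all genes did. Across genes the means of the array types correlated at 0.35.

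Slc25a53 had -0.12, -0.22 and -0.22 on the cDNA array, beside -0.20, -0.22 and -0.19 on the oligonucleotide array. Of the other carriers, Slc25a4 lay above 0 on all 6 arrays, Slc25a16, Slc25a22 and Slc25a46 had opposite signs on the array types, and the rest had pools on both sides of 0 on at least 1 type. Slc25a13 had 0.13, 0.21 and -0.19 there and Slc25a17 had 0.23, 0.12 and -0.12, with pools on both sides of 0, although all pools of both lay below 0 on the oligonucleotide array. Slc25a4 had 0.09, 0.35 and 0.28, Slc25a5 had 0.22, 0.31 and 0.10, and Slc25a42 had 0.29, 0.12 and -0.04. Slc25a37 had -0.96, -0.08 and -0.50. Single cDNA values stood far from the rest: Slc25a40 was at 3.51 in pool 2 and Slc25a14 at 3.56 in pool 3, and Slc25a33 ran between -2.03 and 0.59. Slc25a20 had 2 values, 0.44 and -0.18, and was left out of the fit with Slc25a44, which had -2.18 and -0.45.

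**Figure D2:**
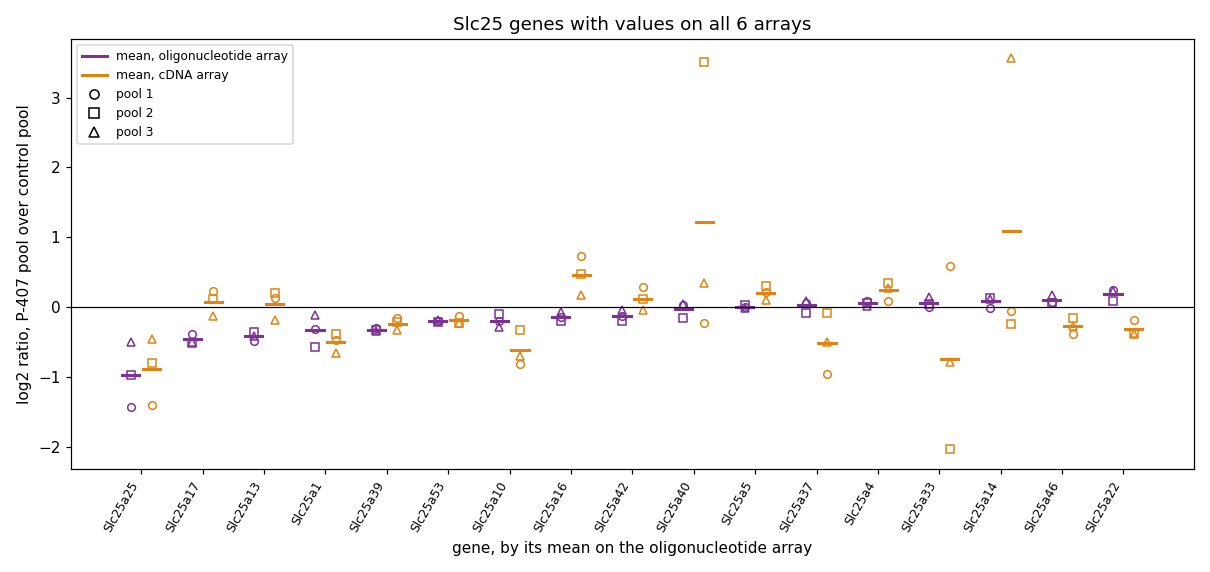
Log2 ratio of each P-407 pool over the control pool for 17 Slc25 genes with values on all 6 arrays, ordered by their mean on the oligonucleotide array. For each gene the oligonucleotide array is on the left in purple and the cDNA array on the right in orange, open symbols are pools and bars are means. Slc25a25 runs from -1.42 to -0.45 over both types, and the single high cDNA values of 3.51 for Slc25a40 and 3.56 for Slc25a14 stand alone.

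With the arrays of both types averaged per pool, none of the 17 carriers was called, against a background of 5.1% of 4702 genes. At an unadjusted p under 0.05 the averaged fit held 4 of 17 carriers and 1707 of 4702 genes, so the share of carriers lay below that of all genes. Slc25a25 had averages of -1.41, -0.88 and -0.47 and a mean of -0.92 ± 0.47 (adjusted p = 0.0742). Without pool 3 its adjusted p was 0.04995 at a mean of -1.15, in a fit that called 11.3% of all genes. Slc25a1 had -0.39, -0.47 and -0.38 and a mean of -0.42 ± 0.05 (adjusted p = 0.0582). Its averages lay closer together than its values on either array type. Slc25a10 had a mean of -0.40 (adjusted p = 0.0820) and Slc25a39 one of -0.28 (adjusted p = 0.0901).

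The difference between the array types, oligonucleotide minus cDNA, passed the test for 1 of 17 carriers, against a background of 11.4% of 4702 genes. Slc25a22 had 0.24, 0.08 and 0.23 on the oligonucleotide array and -0.19, -0.37 and -0.39 on the cDNA array. Its values did not overlap between the types, and the difference was 0.50 (adjusted p = 0.0475). With the pool as a block, which pairs the arrays of the same RNA, the adjusted p was 0.142, and no gene of the 4702 was called. Its adjusted p was 0.265 without pool 1, 0.241 without pool 2 and 0.0925 without pool 3.

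The enzymes and channels that work beside the carriers were counted on the oligonucleotide array, against 22% of all genes called higher and 21.4% called lower. Without pools 1, 2 and 3 the fits called 23.9%, 29.2% and 37% of all genes in either direction. Of 8 genes of citrate export and use 6 were lower and none higher, with a list median of -0.33. They included Me1, malic enzyme, at -0.78, Acly, which cleaves citrate in the cytosol, at -0.62, Idh1 at -0.35 and Cs, citrate synthase, at -0.31. Slc25a1, at -0.33, moves the citrate that Acly uses. Of 9 urea cycle genes 6 were lower and 1 higher, with a median of -0.30. Ass1 was at -0.70, Arg1 at -0.70 and Asl at -0.55, while Arg2, the mitochondrial arginase of other tissues, was higher at 0.40. On the cDNA array 4 urea cycle genes had values, with a list median of -0.025. Cps1 was at -0.34 there, and Otc, Oat and Arg2 had means of the other sign than on the oligonucleotide array. Slc25a15 and Slc25a13, which serve the same cycle, were at -0.53 and -0.42 on the oligonucleotide array. Slc25a13 was at 0.05 on the cDNA array. Arg1 and Ass1 were also in the hepatocyte marker list.

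Of 6 enzymes of the malate-aspartate and glycerol phosphate shuttles, which work with Slc25a11 and Slc25a13, 4 were lower and none higher. Got2 was at -0.37, Got1 at -0.34, Gpd2 at -0.18 and Mdh1 at -0.16, and leaving out pool 1 or pool 3 lowered the count to 2. Of 8 genes of carnitine use, Crot, a peroxisomal acyltransferase, was higher at 0.83. Bbox1, which makes carnitine, was lower at -0.38 and Slc22a5, which takes it up, at -0.31, and the other 5 were not called.

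Of 17 partners in iron, haem and glutathione use, 4 were higher and 5 lower. Alas1, the first enzyme of haem synthesis in liver, was at -1.01, and its erythroid counterpart Alas2 at 0.44. Shmt2, a mitochondrial serine and glycine enzyme, was at -0.41 and Gclc, of glutathione synthesis, at 0.27. The counts were 1 higher and 3 lower without pool 1, and 2 higher and 3 lower without pool 2. Of 15 enzymes of coenzyme A, NAD, thiamine and folate use, 5 were lower and none higher, among them Coasy at -0.29, Pank1 at -0.28, Mthfd1 at -0.22 and Pank2 at -0.15. The count was 2 without pool 1 or pool 2 and 3 without pool 3.

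Lists of mitochondrial machinery were counted in the same way. Of 68 subunits of oxidative phosphorylation, 9 were lower, 5 were higher and 54 were not called, with a median of -0.03. Cyc1 was at -0.39 and Sdhd at -0.32, and Atp5g3 was higher at 0.37 and Uqcrh at 0.36. The counts were 2 lower and 3 higher without pool 1, 2 higher without pool 2 and 4 lower without pool 3. Of 25 protein import genes, 8 were lower and 2 higher, and 5 were lower without pool 1 and 1 higher without pool 1 or pool 2. Timm13 was at -0.41, Hspa9 at -0.32 and Timm9 at -0.28, and Timm8b was higher at 0.41.

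Of 14 regulators of mitochondrial biogenesis, 6 were lower and 1 higher, with none higher without pool 2. Esrra, a nuclear receptor of mitochondrial genes, was at -0.44, Twnk, the mitochondrial helicase, at -0.43, Ppargc1b at -0.34 and Tfb1m at -0.28. Of 9 pyruvate carriers, channels and sideroflexins, Vdac1 was lower at -0.17 and Sfxn2 at -0.22, and Vdac2 was higher at 0.19 and Sfxn4 at 0.21. No member of that list was lower without pool 1 or pool 3, and none higher without pool 1 or pool 2. Of 4 SLC25 relatives with other names, Mtch1 and Mtch2 of the outer membrane were lower, at -0.44 and -0.40, and Ucp1 and Ucp3 were not called, at 0.08 and -0.13. The lists were not tested as sets.

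Some of these partner genes read otherwise on the cDNA array, where none was called. Idh1 had 0.68, 0.64 and 0.39 there, against a mean of -0.35 on the oligonucleotide array. Alas2 had -0.99, -0.54 and -0.38 there, against a mean of 0.44. Every cDNA value of both genes lay on the other side of 0, as did those of Mdh1, with a cDNA mean of 0.13, and of Mthfd1, with 0.11. The same held for Otc, Aco1 and Ndufv3, called lower on the oligonucleotide array, with cDNA means of 0.37, 0.11 and 0.39. Cs, Shmt2, Arg2 and Sdhd also had cDNA means of the other sign, at 0.10, 0.34, -0.12 and 0.12. So did Oat, Gss and Tomm70a, at 0.07, -0.17 and 0.53. Me1 had -1.03, -0.55 and -0.71 on the cDNA array and Acly had -0.17, -0.35 and -0.49, below 0 in every pool on both array types.

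**Figure D3:**
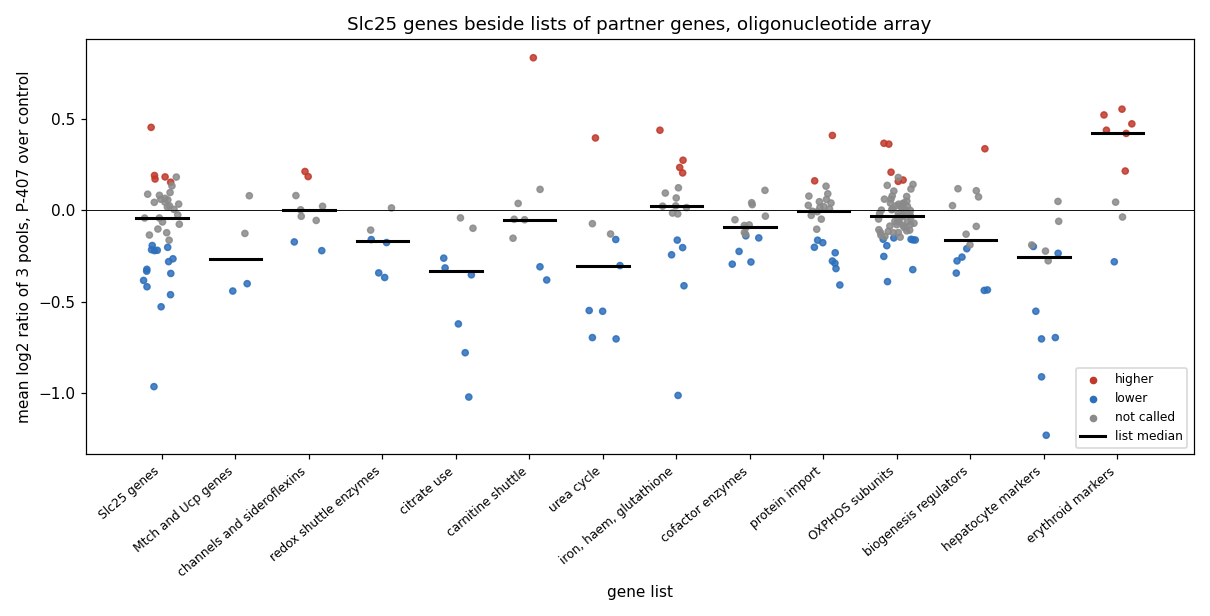
Mean log2 ratio of 3 P-407 pools over the control pool for each gene of the Slc25 family and of 13 other lists on the oligonucleotide array. Points are genes, coloured red, blue or grey for called higher, called lower or not called by limma, horizontal jitter is for display, and black bars are list medians. The medians of citrate use and of the urea cycle lie at -0.33 and -0.30, those of the Slc25 genes and of oxidative phosphorylation at -0.04 and -0.03.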

How the data were processed

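Total RNA of 3 pools of P-407 livers was hybridised on 3 oligonucleotide and 3 cDNA arrays against 1 control pool, per the labels. The deposited values are log ratios normalized by the authors, 1 per feature and array, with log base, centring, background correction and normalization not given in the sources used here. They were read as log2, since the largest absolute deposited value, 6.34, is above the log10 of the highest 16-bit intensity, 4.82. A natural log was not excluded, and folds would then be larger. The direction, P-407 over control, was inferred from titles and dyes in the labels, which do not state it outright. Values of exactly 0 were taken as missing (between 3421 and 5332 per cDNA array) and each array was centred on its median. Features were named from the platform annotation, and features naming several genes were left out. Features of a gene were averaged where all 3 arrays of a type had a value.

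Means of 3 pools were tested against 0 with limma 3.58.1 (lmFit, eBayes) in R 4.3.3, separately for each array type and for the per-pool mean of both, with Benjamini-Hochberg adjustment over all genes tested and a threshold of 0.05. The difference between types was fitted over 6 arrays. Both array types read the same RNA, so pool numbers pair them by design. Deviations of same-numbered arrays correlated at 0.06, 0.07 and 0.07 across genes, and those of other pairs between -0.06 and -0.02. All of these lie close to 0. Deviations were taken from each gene's mean of 3 arrays, so positive values for same-numbered arrays entail negative ones elsewhere. The contrast is therefore no separate evidence for the pairing. Alternatives covered zeros, centring, feature summary, missing values, the variance prior, a 1.2-fold test, the pool block and leaving out each pool. Fits were tested on simulated data, in which the cDNA fit recovered none of the genes given a shift. Python 3.11.15, pandas 2.3.3 and matplotlib 3.10.9 made tables and plots.

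Per-pool values were given for carriers called with a mean at least 0.32 from 0, for those called in the mean of both types or as different between types, and for a set list of 18 well-known carriers, of which Slc25a47 and Slc25a51 had no feature of their own. Of each other list, up to 4 called genes with the smallest p were named. The members and the 15 lists were chosen with earlier results of these data known. Promoter sequences are from RefSeq, GRCm38.p6, in windows of 250 bases before to 50 after a start, and 34 of 43 carriers matched. The number of arrays limits the precision.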

Additional observations from a re-analysis of the deposited data

Results flagged for a closer look

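Between the array types, 3 carriers stood out. Slc25a22 differed by 0.50 (oligonucleotide minus cDNA), with a mean of 0.18 on the oligonucleotide array and -0.32 on the cDNA array (limma adjusted p = 0.0475, and 0.142 with the pool block). Slc25a16 had opposite signs on all arrays of each type, with -0.14, -0.19 and -0.07 on the oligonucleotide array and 0.73, 0.47 and 0.18 on the cDNA array, a difference of -0.59 that did not pass the test (adjusted p = 0.0714). Slc25a46 had 0.07, 0.06 and 0.17 on the oligonucleotide array and -0.38, -0.15 and -0.27 on the cDNA array, a difference of 0.36 that did not pass it either (adjusted p = 0.0872). Groups of 3 pools were too small to look for a single outlying pool.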

How the results depend on the processing

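Of the main counts, 5 carriers higher and 15 lower on the oligonucleotide array, none remained in either direction without a shared variance prior. Against a 1.2-fold change the counts were 1 higher and 3 lower, and leaving out 1 pool gave between 2 and 4 higher and between 8 and 13 lower. Of all genes, 5.17% were called against a 1.2-fold change, and 23.9%, 29.2% and 37% without pools 1, 2 and 3. Called in all 3 fits that left out 1 pool were Slc25a11, Slc25a13, Slc25a15, Slc25a17, Slc25a25, Slc25a29, Slc25a39, Slc25a41 and Slc25a54. Called in addition were Slc25a32 without pool 1, Slc25a35 without pool 3 and Slc25a16 with centring on features naming 1 gene. In the mean of both array types, using 1 type where the other had no value raised the carriers tested to 43. The counts were then 1 higher and 11 lower, beside 26.8% of all genes called there. Leaving out 1 pool gave between 0 and 1 lower in the mean of both types. Without pool 3 that fit called 11.3% of all genes, and without pool 1 or pool 2 it called no gene. The count of carriers differing between types, 1 in the main fit, was 0 with the replicate block and 0 with zeros kept as ratios. Leaving out 1 pool gave between 0 and 3, where the 3 without pool 3 were Slc25a13, Slc25a16 and Slc25a17, beside 22.6% of all genes called in that fit. Slc25a22, called higher on the oligonucleotide array, was at -0.07 in the mean of both types and -0.32 on the cDNA array. Slc25a13 and Slc25a17, called lower on the oligonucleotide array, had cDNA means of 0.05 and 0.08. Within the oligonucleotide array no called carrier changed sign in any alternative run. Carriers that were not called and lay near 0 did, among them Slc25a20 (-0.06, and 0.01 without pool 3), Slc25a28 (0.04, and -0.01 without pool 1), Slc25a37 (0.02, and -0.01 without pool 3) and, on the cDNA array, Slc25a13 (0.05, and -0.03 without pool 2). Slc25a5 on the oligonucleotide array, Slc25a17 on the cDNA array and Slc25a42 in the mean of both types did so too, at values close to 0, and the cDNA counts stayed at 0 in each. The cause of these changes was not tested. Signal over background is unknown, and 3 pools against 1 control pool limit every value.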
